A study of Drosophila melanogaster with 9 samples.

Results

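The methuselah genes of Drosophila melanogaster encode a family of G protein-coupled receptors of the secretin-like class B. Transcripts of 10 of them, mth, mthl1, mthl2, mthl3, mthl4, mthl5, mthl8, mthl9, mthl10 and mthl14, were followed in the thorax of aged females. The members were taken by gene name and not by a cutoff on a measured value. They were chosen with earlier results of these data known, so their counts beside the shares of all features are a description. All 10 were found among the 13759 features that both deposited count tables share, and all 10 passed the filter on low counts in each of the 3 comparisons.

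The founding gene, mth, takes its name from mutant flies that live longer and better withstand heat, starvation and oxidative stress. Its product has a long extracellular domain, and the peptide Stunted, encoded by sun, is a reported ligand that activates it. Mthl10 is the reported receptor of the growth-blocking peptides Gbp1 and Gbp2, cytokine-like hormones that link nutrition, growth and immune activity, and Mthl1, also called Mist, receives the Fog signal that drives cell shape change in the embryo. No ligand is named here for the other 7 members.

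RNA was sequenced from pools of thoraces of female flies on adult day 20, in a study of retrotransposons and aging. All flies carried the background W1118 (BL5905) and a short hairpin RNA driven throughout the body by Act5C, written Act5C>shRNA in the labels. The hairpin targeted the retrotransposon 412 in the group 412KD and the retrotransposon roo in the group RooKD, and was a scrambled sequence in the group scramble, the control. Each group held 3 libraries. Nothing in the labels tells if the 3 pools of a group were grown apart, so the p-values rest on the spread from pool to pool, which may be technical. In bulk tissue such as this, fewer cells of a type and less RNA per cell cannot be told apart.

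The libraries held 20600497 to 26177587 reads in 412KD, 17590599 to 22361932 in RooKD and 19766132 to 23545648 in scramble. Levels are given as CPM, read counts scaled to library size after TMM, a normalization that assumes most genes are alike. The group names are those of the titles, since the counts did not show the targeted elements lower. Summed over 3 features, 412 stood at 0.524 to 0.903 CPM in 412KD and 0.485 to 0.743 CPM in scramble. Summed over 2 features, roo stood at 9.16 to 14.1 CPM in RooKD and 8.16 to 12.0 CPM in scramble. The 412 values rest on only 51 reads in all of 412KD and 42 in all of scramble. How reads that match several places were counted is also not known, so these counts are a weak gauge of either knockdown. All 12 flight muscle markers had reads in every library, with sums of 12465 to 13438 CPM in 412KD, 10827 to 13090 CPM in RooKD and 9706 to 12218 CPM in scramble. Transcripts of 17 ovary and germline genes set 412KD replicate 3 (1445 CPM summed) and RooKD replicate 1 (738 CPM) apart from the other 7 libraries (69.0 to 220 CPM). Of those 7, 412KD replicate 1 was the highest at 220 CPM, with 11 of the 17 markers over 1 log2 unit above the scramble mean, and the remaining 6 held 69.0 to 108 CPM. Results are therefore also given from a fit of the 7 libraries, called the 7-library fit, which still holds 412KD replicate 1, and from a fit of the remaining 6, called the 6-library fit, in which 412KD is replicate 2 alone and is assumed to vary like the other groups.

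Per kilobase of exon, the members covered a wide range in the control thorax. In scramble mthl2 stood first at 28.7 ± 5.25 CPM per kb, followed by mthl10 at 13.1 ± 2.58, mth at 11.0 ± 1.33 and mthl14 at 10.7 ± 1.60 (SD, n = 3 each). The ranges of mthl10 and mth overlapped, as did those of mth and mthl14, so these neighbours in the order were not separated by their libraries. Next came mthl5 at 6.38 ± 0.928 and mthl1 at 5.77 ± 0.485 CPM per kb, whose ranges overlapped. The low end was formed by mthl3 at 3.66 ± 0.752, mthl4 at 2.65 ± 0.115, mthl9 at 1.07 ± 0.410 and mthl8 at 0.195 ± 0.108 CPM per kb, each with a range apart from the next. Among 10512 genes with a median of 9.94 CPM per kb in scramble, mthl2 lay at percentile 77.5, mthl10 at 57.6, mth at 52.6 and mthl8 at 1.72. Apart from mthl2, the members stood near or below the median gene of this tissue.

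The order was not the same in every group. In 412KD, mthl2 at 12.6 ± 6.71 CPM per kb and mthl10 at 12.3 ± 1.24 overlapped at the top, mthl14 at 5.70 ± 0.601 stood after mthl1 at 6.01 ± 0.388, and mthl8 at 3.35 ± 0.339 overlapped mthl3 at 3.05 ± 0.446 (SD, n = 3 each). In RooKD, mthl2 at 15.8 ± 5.96, mthl10 at 14.9 ± 1.31, mthl14 at 13.8 ± 3.27 and mth at 10.5 ± 0.379 CPM per kb overlapped one with the next. The summed level of the 10 members was 197, 188 and 150 CPM in the 3 libraries of 412KD and 236, 183 and 218 CPM in those of RooKD, against 244, 212 and 206 CPM in scramble. All 3 sums of 412KD were below the lowest of scramble, while those of RooKD overlapped scramble. Such sums weigh the abundant members most, among them mthl2 with means of 25.6 CPM in 412KD and 58.4 CPM in scramble. They do not show the members lower as a group: 4 had a log2 fold change above 0 in 412KD and 6 below. The sums were not tested.

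**Figure D1:**
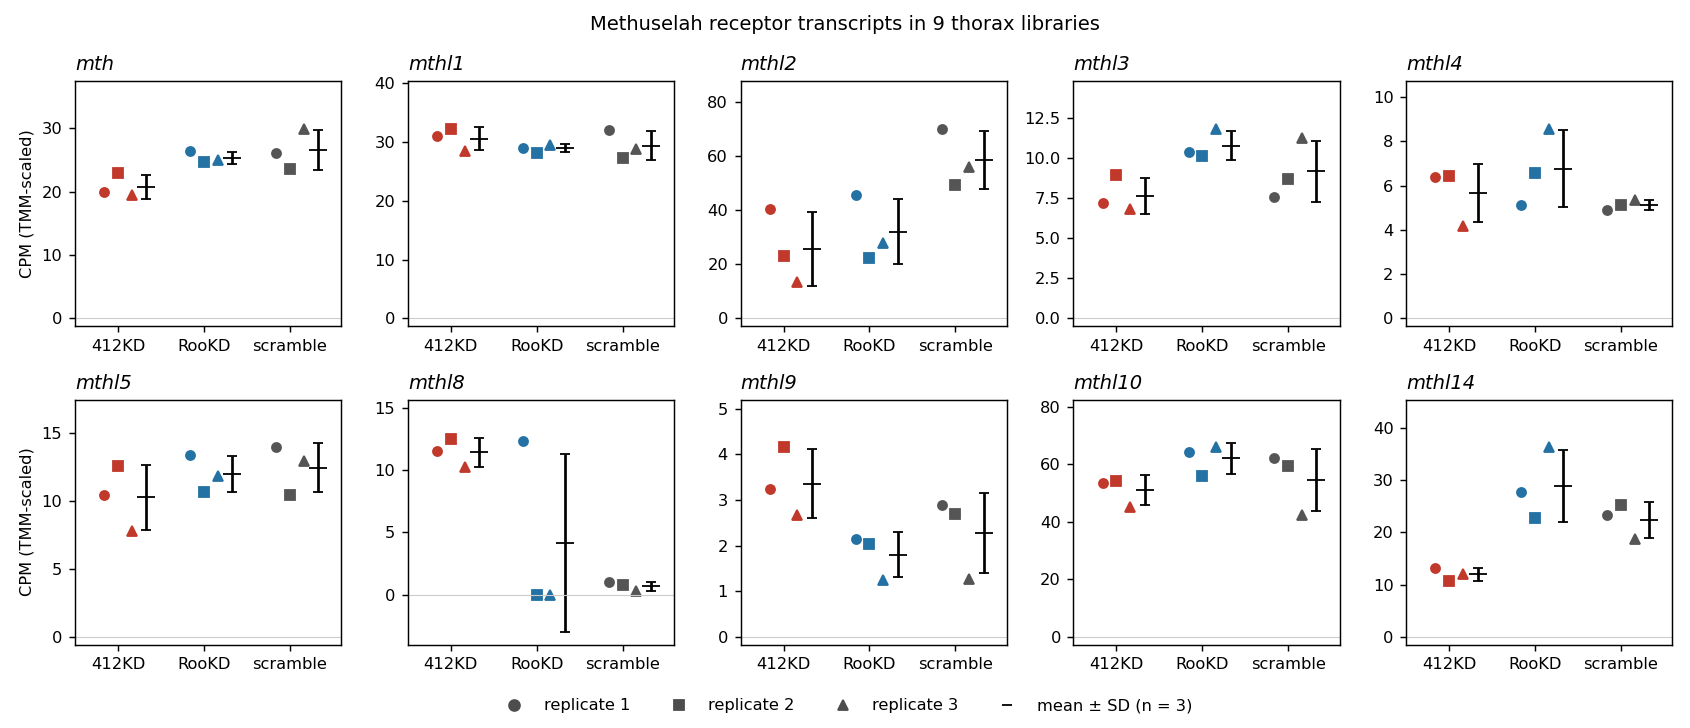
CPM of each of the 10 members in every library (circle, square and triangle for replicates 1, 2 and 3), with the mean and SD of each group of 3 beside the points; every panel has its own linear axis. The mthl8 panel reaches below 0 because the SD of RooKD, 7.13 CPM, exceeds its mean of 4.12 CPM: one RooKD library stands at 12.4 CPM and the other two at 0.

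The first comparison asked how the receptors differ when the hairpin targets 412. In 412KD, mthl8 was high where scramble held only a trace, mthl14 stood at 53.4% and mthl2 at 43.9% of the scramble mean, mth was slightly lower, and the other 6 members overlapped scramble. By edgeR's quasi-likelihood test with Benjamini-Hochberg adjustment over all features, 0 of the 10 members passed an adjusted p of 0.05, against 0.0192% of all features tested, and 4 members had an unadjusted p under 0.05, against 11.2% of all features. DESeq2, run as an alternative, called 3 of the 10 (mthl8 higher, mthl14 and mthl2 lower), against 2.97% of all features. The 7-library fit by edgeR called 1 member, mthl8, against 1.09% of all features. DESeq2 on the 7 libraries called the same 3 as on all, against 3.44%. For 4 members (mth, mthl2, mthl8 and mthl14) the 3 libraries of 412KD did not overlap those of scramble, against 17.7% of all features. The median log2 fold change of the 10 members was -0.18, beside 0.01 over all features tested.

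The member with the largest difference was mthl8, a receptor gene to which no function is assigned here. It had 11.5, 12.5 and 10.2 CPM in 412KD, against 0.986, 0.743 and 0.265 CPM in scramble. In reads these are 220, 319 and 253 in 412KD and 25, 16 and 6 in scramble, so every 412KD library stood far above every scramble library. The log2 fold change was 4.08 ± 0.40 (SE), with an adjusted p of 0.0645 by edgeR and of 2.99e-25 by DESeq2. Under edgeR the call depended on single libraries: the adjusted p was 0.00773 without 412KD replicate 3 and 0.0320 without scramble replicate 3, and between 0.102 and 0.225 when any of the other 4 was left out, with log2 fold changes of 3.71 to 4.50 over all 6. In the 7-library fit it was 4.16, with an adjusted p of 0.00436 by edgeR, and in the 6-library fit 4.22. One edgeR fit of all 9 libraries, RooKD included, gave 4.08 ± 1.81 (SE) with an adjusted p of 0.567. With the replicate number as a block, edgeR's adjusted p was 0.0703.

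Ovary and germline transcripts were also higher in some 412KD libraries, but within 412KD they did not follow mthl8. Their sum was 220, 84.4 and 1445 CPM in the 3 libraries of 412KD, against 76.1, 69.0 and 98.1 CPM in scramble. By count, 11, 3 and 15 of the 17 markers exceeded the mean of scramble by over 1 log2 unit in 412KD replicates 1, 2 and 3. The gene yl, the yolk protein receptor of the oocyte, had 30.3, 0.471 and 200 CPM in those libraries, against 0.118, 0 and 0 CPM in scramble. Ovary transcripts were thus raised in 412KD replicates 1 and 3 and little in replicate 2. In the same order of replicates 1, 2 and 3, mthl8 stood at 11.5, 12.5 and 10.2 CPM. The part of ovary tissue in the mthl8 values of 412KD was not tested. Midgut markers, 9 in number and all with reads in every library, summed to 10749 to 15468 CPM in 412KD and 5934 to 7839 CPM in scramble without overlap, and their part in the mthl8 result was not tested. Hemocyte markers, 9 in number, summed to 855 to 1120 CPM in 412KD and 1025 to 1693 CPM in scramble, with overlap.

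The receptor gene mthl14, to which no function is assigned here either, was lower in 412KD with little spread. It had 13.1, 10.6 and 12.0 CPM in 412KD, against 23.3, 25.1 and 18.6 CPM in scramble, so that the highest 412KD library lay well below the lowest scramble library. As means these are 11.9 ± 1.26 CPM in 412KD and 22.3 ± 3.35 CPM in scramble (SD, n = 3 each). The log2 fold change was -0.90 ± 0.15 (SE), with an adjusted p of 0.121 by edgeR and 0.000185 by DESeq2. It ranged from -1.02 to -0.81 when single libraries were left out and was -0.91 in the 7-library fit.

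The most abundant member of scramble, mthl2, was lower and more scattered. It had 40.3, 23.2 and 13.4 CPM in 412KD, against 70.2, 49.3 and 55.8 CPM in scramble. The groups did not overlap, but the 412KD libraries spread widely among themselves, with 25.6 ± 13.6 CPM in 412KD and 58.4 ± 10.7 CPM in scramble (SD, n = 3 each). The log2 fold change was -1.19 ± 0.39 (SE), with an adjusted p of 0.353 by edgeR and 0.0367 by DESeq2. It was -0.88 without 412KD replicate 3, the lowest library, and -1.67 without 412KD replicate 1, the highest. Of the marker lists, midgut was the one whose median log2 CPM ran most strongly against mthl2 over the 9 libraries (Pearson r = -0.79, a description over libraries that also share group and depth), and its part in the result was not tested.

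The lifespan gene mth had 19.9, 22.9 and 19.4 CPM in 412KD, against 26.1, 23.6 and 30.0 CPM in scramble. The groups were separated by less than 1 CPM, between 412KD replicate 2 and scramble replicate 2. The log2 fold change of mth was -0.36 ± 0.13 (SE, 95% interval -0.61 to -0.10), with an adjusted p of 0.396 by edgeR and 0.372 by DESeq2. Its level in 412KD was 78.0% of scramble. The 95% intervals here and below are taken from the SE by a normal approximation, so with so few libraries they are too narrow.

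The remaining 6 members overlapped between 412KD and scramble and were called by neither tool. The Gbp receptor gene mthl10 had 53.7, 54.4 and 45.1 CPM in 412KD, against 62.1, 59.4 and 42.3 CPM in scramble, a log2 fold change of -0.09 (95% interval -0.42 to 0.23). The Fog receptor gene mthl1 had 31.0, 32.3 and 28.4 CPM in 412KD and 32.0, 27.2 and 28.8 CPM in scramble, a log2 fold change of 0.06 (-0.16 to 0.27). Of all members mthl1 varied least, with a coefficient of variation of 0.06 over the 9 libraries, at percentile 2.42 among the genes tested. For mthl3, mthl4 and mthl5 the log2 fold changes were -0.26, 0.15 and -0.28, and for mthl9, with 234 reads in 412KD and 160 in scramble the member with the fewest reads in this comparison, it was 0.56 ± 0.36 (SE).

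**Figure D2:**
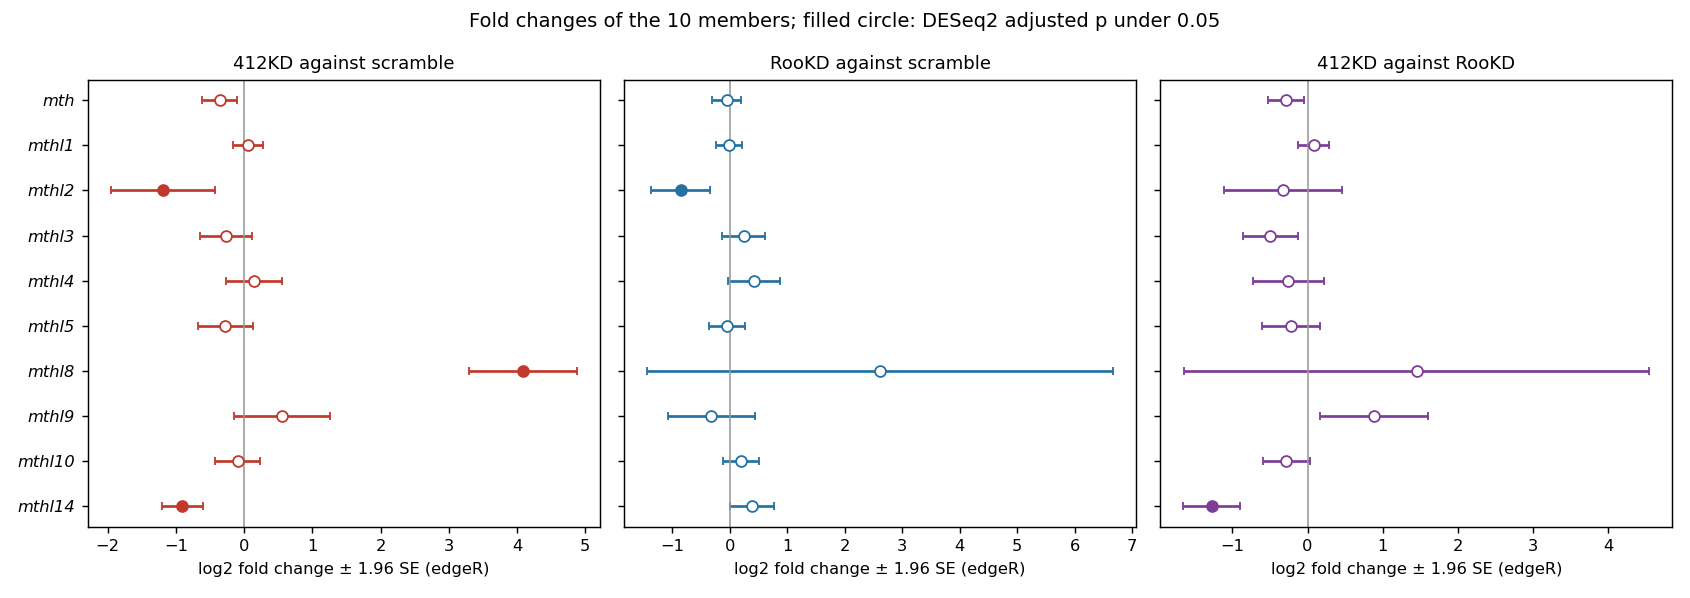
Log2 fold change of each member by edgeR, for 412KD against scramble, RooKD against scramble and 412KD against RooKD. Bars are 95% intervals by a normal approximation, too narrow for so few libraries. Filled circles passed an adjusted p of 0.05 by DESeq2, and no member passed by edgeR. The filled points are mthl2 (-1.19), mthl8 (4.08) and mthl14 (-0.90) on the left, mthl2 (-0.86) in the middle and mthl14 (-1.28) on the right, and the wide bars of mthl8 in the middle and right panels belong to comparisons in which the RooKD libraries disagree with one another.

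The second comparison asked the same of the hairpin against roo. In RooKD, mthl2 was again below scramble in every library, mthl8 was high in one library and absent from the counts of the other two, and the remaining 8 members overlapped scramble. By edgeR, 0 of the 10 members passed an adjusted p of 0.05, against 0.107% of all features tested, and 1 had an unadjusted p under 0.05, against 12.7% of all features. DESeq2 called 1 of the 9 members to which it gave an adjusted p (mthl2, lower), against 3.41% of all features. In the 7-library fit edgeR called 0 members, against 0.791% of all features, and DESeq2 on those libraries called 2 (mthl2 and mthl8, both lower), against 5.44%. The 6-library fit by edgeR called 1, mthl2, against 0.448%. Without overlap between the groups stood 1 member, mthl2, against 18.7% of all features. The median log2 fold change of the 10 members was 0.09, beside 0.02 over all features.

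In RooKD mthl2 had 45.7, 22.5 and 28.0 CPM, against 70.2, 49.3 and 55.8 CPM in scramble. All 3 RooKD libraries lay below the lowest scramble library, by the smallest margin in RooKD replicate 1. The means were 32.1 ± 12.1 CPM in RooKD and 58.4 ± 10.7 CPM in scramble (SD, n = 3 each), and the log2 fold change was -0.86 ± 0.26 (SE), with an adjusted p of 0.252 by edgeR and 0.0423 by DESeq2. Leaving out RooKD replicate 1 gave -1.20, with an adjusted p of 0.0537 by edgeR, and the 6-library fit gave -1.20 with an adjusted p of 0.0492. Both comparisons use the same scramble libraries, so the lower values of mthl2 in 412KD and in RooKD are not independent of each other.

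The mthl8 gene divided the RooKD libraries. RooKD replicate 1 held 272 reads of it (12.4 CPM), about the level of the 412KD libraries, while replicates 2 and 3 held 0 reads, against 0.986, 0.743 and 0.265 CPM in scramble. A count of 0 allows up to 3 reads, or 0.153 CPM in RooKD replicate 2 and 0.178 CPM in RooKD replicate 3, and these limits cover counting error only. The log2 fold change over all 3 libraries was 2.62 ± 2.07 (SE), with an adjusted p of 0.642 by edgeR, and DESeq2 gave none. Its sign rested on RooKD replicate 1. For the other RooKD libraries, the scramble mean of 0.665 CPM was 3.74-fold the higher floor of 3 reads, 0.178 CPM. That ratio includes no error of the scramble counts, and scramble replicate 3, at 0.265 CPM, stood close to the floor. Without RooKD replicate 1 edgeR's adjusted p was 0.139, or 0.0624 in the 7-library fit.

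RooKD replicate 1 is also the RooKD library with high ovary transcripts. Its 17 ovary and germline markers summed to 738 CPM, with 15 of them over 1 log2 unit higher than in scramble on average, against 82.2 and 108 CPM in RooKD replicates 2 and 3. The egg genes yl, nos and Vm26Aa were at 0 in both of those libraries. Over all 9 libraries the median log2 CPM of the ovary markers had a Pearson r of 0.73 with the log2 CPM of mthl8, and that of the hemocyte markers one of -0.75, both given as a description of libraries that share group and depth. The part of ovary tissue and of hemocytes in the mthl8 values was not tested.

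**Figure D3:**
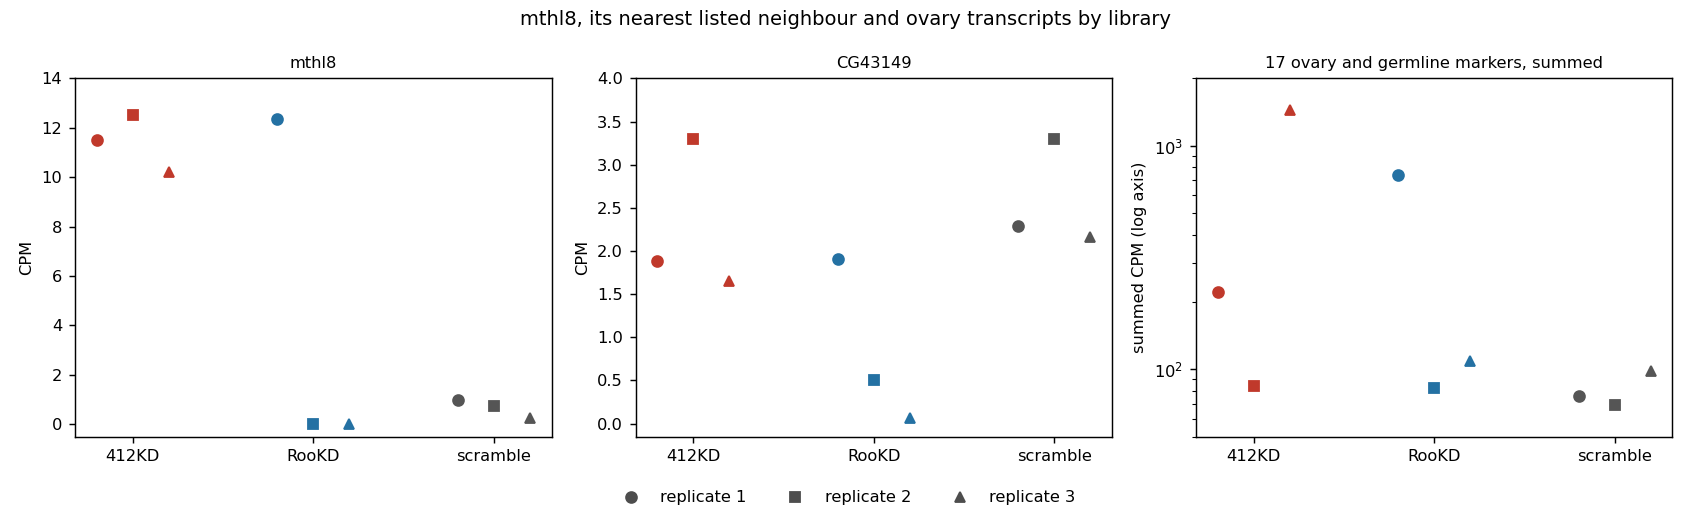
CPM of mthl8 (left), of CG43149, its nearest listed neighbour (middle), and the summed CPM of 17 ovary and germline markers on a log axis (right), each point one library. The 3 libraries of 412KD and RooKD replicate 1 stand at 10.2 to 12.5 CPM of mthl8 and the other 5 libraries under 1 CPM, whereas the ovary sum is high in 412KD replicate 3 and RooKD replicate 1 (1445 and 738 CPM), lower in 412KD replicate 1 (220 CPM) and 69.0 to 108 CPM in the remaining 6.

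The other members in RooKD stayed within the scramble range or overlapped it. The lifespan gene mth had 26.4, 24.6 and 25.0 CPM in RooKD, against 26.1, 23.6 and 30.0 CPM in scramble, a log2 fold change of -0.06 (95% interval -0.31 to 0.20). The value of mthl1 was -0.01 (-0.24 to 0.21) and that of mthl10 0.20 (-0.12 to 0.51). In mthl14, RooKD had 27.6, 22.8 and 36.3 CPM, against 23.3, 25.1 and 18.6 CPM in scramble, a log2 fold change of 0.38 ± 0.20 (SE) with an adjusted p of 0.459 by edgeR. Each of the 4 scarcer genes overlapped scramble as well. In mthl4, RooKD had 5.13, 6.57 and 8.58 CPM, against 4.89, 5.11 and 5.34 CPM in scramble, where RooKD replicate 1 fell inside the narrow scramble range and the other two above it (log2 fold change 0.42 ± 0.23, SE). The log2 fold changes of mthl3, mthl5 and mthl9 were 0.24, -0.05 and -0.32, with means of 10.8, 12.0 and 1.80 CPM in RooKD, against 9.17, 12.4 and 2.28 CPM in scramble.

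The third comparison set the hairpin groups against each other, with the scramble libraries in the fit for the estimate of spread only. The widest gap was that of mthl14, with at most 13.1 CPM in 412KD and at least 22.8 CPM in RooKD, and mth, mthl3, mthl9 and mthl10 were separated by smaller margins. By edgeR, 0 of the 10 members passed an adjusted p of 0.05, against 0.0943% of all features tested, and 4 had an unadjusted p under 0.05, against 6.02% of all features. DESeq2 called 1 of 9, mthl14, against 0.774% of all features. The 7-library fit by edgeR called 1, mthl8, against 0.659% of all features, the 6-library fit called mthl8 too, against 0.174%, and DESeq2 on the 7 libraries called 2 (mthl8 and mthl14), against 3.77%. For 4 members (mthl3, mthl9, mthl10 and mthl14) every 412KD library lay on one side of the scramble mean and every RooKD library on the other, against 1.88% of all features. Of these, mthl3, mthl9 and mthl10 overlapped the scramble libraries in both hairpin groups. For mthl10 the highest 412KD library, at 54.37 CPM, lay just under the scramble mean of 54.56 CPM. For 5 members 412KD and RooKD did not overlap, against 9.09% of all features. The median log2 fold change of the 10 members was -0.27, beside 0.00 over all features.

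For mthl14, 412KD had 13.1, 10.6 and 12.0 CPM, against 27.6, 22.8 and 36.3 CPM in RooKD. The log2 fold change was -1.28 ± 0.19 (SE), with an adjusted p of 0.0655 by edgeR and 1.89e-06 by DESeq2. Leaving out single libraries gave -1.42 to -1.08, and the 7-library fit gave -1.33 with an adjusted p of 0.0558 by edgeR. Against scramble, mthl14 was lower in 412KD without overlap, and in RooKD its mean was higher with overlap.

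In 412KD mthl9 had 3.25, 4.16 and 2.67 CPM, against 2.13, 2.04 and 1.24 CPM in RooKD, a log2 fold change of 0.89 ± 0.37 (SE) with an adjusted p of 0.800 by edgeR. For mthl3 the values were 7.18, 8.91 and 6.82 CPM in 412KD, against 10.4, 10.1 and 11.8 CPM in RooKD, a log2 fold change of -0.50 ± 0.19 (SE) with an adjusted p of 0.738 by edgeR. In mth it was -0.29 and in mthl10 -0.28. For mthl8 it was 1.45 ± 1.58 (SE), with the high RooKD library, replicate 1, inside the 412KD range. The mean of 412KD replicates 1 and 2, 12.0 CPM, was at least 67.7-fold the floor of 3 reads that RooKD replicates 2 and 3 allow. That mean leaves out 412KD replicate 3. RooKD replicate 1 was itself at least 69.6-fold that floor, so the ratio describes a split within RooKD as well.

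The members lie on 4 chromosome arms of the build dm6. On 3L are mthl8 (3L:22428-26308, plus strand), mthl14 (3L:247491-250305, plus), mthl9 (3L:329822-332309, minus), mthl10 (3L:332801-342915, minus), mth (3L:343378-346957, minus) and mthl2 (3L:5604790-5607190, plus). On 2R are mthl4 (2R:17445185-17447483, minus) and mthl3 (2R:17448533-17452598, minus), and mthl5 lies at 3R:11883938-11887168 on the minus strand and mthl1 at X:16640968-16650309 on the plus strand. The genes mthl9, mthl10 and mth stand in a row, with gaps of 491 and 462 bases, inside the span of Ptpmeg, a phosphatase gene on the opposite strand whose exons share no base with theirs. The genes mthl4 and mthl3 are 1049 bases apart.

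Adjacent members differed in some levels and not in others. Within the row on 3L, mthl10 averaged 13.1 CPM per kb and mth 11.0 in scramble with overlapping ranges, whereas mthl9 stood apart at 1.07, and in 412KD against scramble their log2 fold changes were -0.09, -0.36 and 0.56. The pair mthl3 and mthl4 had -0.26 and 0.15. Of the 3 members called by DESeq2 in a comparison, mthl2 shares 29 exon bases (1.43% of its own) with Eaf6 and mthl14 shares 77 (3.68%) with DIP2, both on the opposite strand. No source used here gives the use of strand in the counting, so reads in those bases could come from either gene. Eaf6 itself had log2 fold changes of -0.09 in 412KD and 0.08 in RooKD, and DIP2 of -0.08 in 412KD and 0.02 in RooKD, each against scramble.

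Genes within 50 kb of mthl8, mthl14 and mthl2 were read in the same fits, with the window chosen after member values had been seen. Around mthl14, 26 genes are listed and 24 were tested, of which edgeR called 0 in 412KD (3 at an unadjusted p under 0.05) and 1 in RooKD (6 at an unadjusted p under 0.05) against scramble. DESeq2 called 1 in 412KD and 2 in RooKD, against 2.97% and 3.41% of all features. The edgeR shares of all features were 0.0192% in 412KD and 0.107% in RooKD, and 11.2% and 12.7% at an unadjusted p under 0.05. The edgeR call in RooKD was CG42846, 15887 bases away, with 42.0, 36.7 and 15.3 CPM in 412KD and 24.8, 25.5 and 21.7 CPM in RooKD, against 66.0, 61.2 and 60.3 CPM in scramble, and DESeq2 called it there as well. DESeq2 called CG34454 beside it in both, with 13.9, 11.0 and 9.05 CPM in 412KD and 12.3, 8.76 and 12.5 CPM in RooKD, against 32.3, 26.4 and 18.9 CPM in scramble. Both were lower in each hairpin group, whereas mthl14 was lower than scramble in 412KD alone without overlap. Besides DIP2, which overlaps mthl14, the gene nearest to it was E(bx), 579 bases away on the other side, which had log2 fold changes of 0.29 in 412KD and 0.29 in RooKD.

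Around mthl2, 14 genes are listed and 12 were tested, and edgeR called 0 in either comparison with scramble. At an unadjusted p under 0.05 stood 1 in 412KD and 0 in RooKD, against 11.2% and 12.7% of all features. DESeq2 called 1 in 412KD and 0 in RooKD, against 2.97% and 3.41% of all features. The call was CG10592, 9518 bases away, with a log2 fold change of 1.81 in 412KD, opposite in direction to mthl2. Besides Eaf6, which overlaps mthl2, the gene nearest to it was TM9SF3, 811 bases away, which had log2 fold changes of 0.01 in 412KD and 0.04 in RooKD. Near mthl8, which lies close to the first base of the 3L sequence, 3 genes are listed and 2 were tested, of which 0 were called by edgeR or DESeq2 and 0 had an unadjusted edgeR p under 0.05 in either comparison with scramble. Of them CG43149, 27565 bases away, had 1.91, 0.509 and 0.059 CPM in RooKD, against 2.29, 3.30 and 2.16 CPM in scramble, so that it too was low in RooKD replicates 2 and 3, with a log2 fold change of -1.60 and an adjusted p of 0.456 by edgeR. In 412KD it had 1.89, 3.30 and 1.66 CPM, overlapping scramble.

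**Figure D4:**
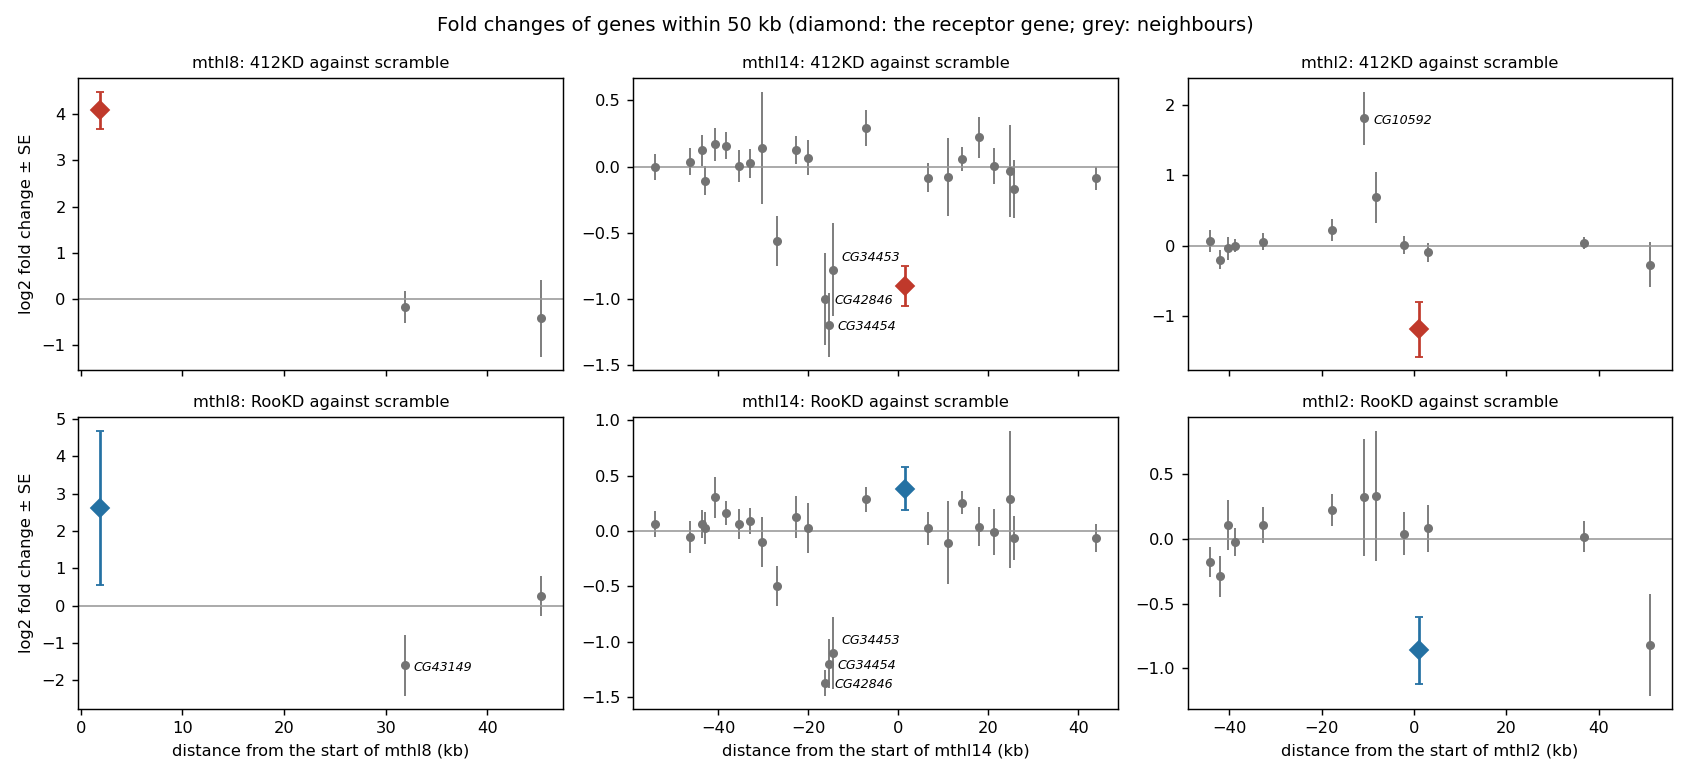
Log2 fold change with its SE (edgeR) of every tested gene within 50 kb of mthl8, mthl14 and mthl2, plotted by the distance of the gene's midpoint from the start of the receptor gene, for 412KD (top) and RooKD (bottom) against scramble; diamonds mark the receptor gene. At mthl14 the genes CG42846 and CG34454 lie below 0 in both rows while mthl14 lies at -0.90 in 412KD and 0.38 in RooKD.

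Of 7 listed genes of reported ligands and their relatives, 4 were tested, and transcripts of these 4 were present in every library. By edgeR 0 of the 4 were called in any comparison. At an unadjusted p under 0.05 stood 1 in 412KD (Gbp3) and 2 in RooKD (Gbp2 and Gbp3) against scramble, and 0 in 412KD against RooKD. The shares of all features there were 11.2%, 12.7% and 6.02%. DESeq2 called 0, 2 and 0 in these comparisons, against 2.97%, 3.41% and 0.774% of all features. Of the other 3, Dup99B had at most 3 reads in a library, and SP and CG31477 were not analysed here. The Mth ligand gene sun, which also encodes a subunit of the mitochondrial ATP synthase, had 154 ± 16.8 CPM in 412KD and 157 ± 23.8 CPM in RooKD, against 130 ± 21.6 CPM in scramble (SD, n = 3 each), with log2 fold changes of 0.25 in 412KD and 0.29 in RooKD. Of the Mthl10 ligand genes, Gbp1 had 19.4 ± 3.16 CPM in 412KD and 19.5 ± 3.96 CPM in RooKD, against 19.7 ± 4.23 CPM in scramble. Neither gene was called by edgeR or DESeq2.

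Gbp2 and its relative Gbp3 were higher in RooKD. Gbp2 had 796, 788 and 684 CPM in RooKD, against 357, 328 and 553 CPM in scramble, a log2 fold change of 0.88 ± 0.21 (SE) with an adjusted p of 0.188 by edgeR and 0.00475 by DESeq2. Gbp3 had 120, 80.0 and 78.2 CPM in RooKD, against 39.1, 39.9 and 55.7 CPM in scramble, a log2 fold change of 1.05 ± 0.21 (SE) with an adjusted p of 0.123 by edgeR and 0.000597 by DESeq2. For both genes every RooKD library lay above every scramble library. The sum of 9 markers of the fat body, a tissue in which Gbp genes are made, also did so, with 83515 to 93579 CPM in RooKD and 42342 to 70561 CPM in scramble. Such a sum weighs the abundant markers most: 7 of the 9 had a log2 fold change above 0 and 2 below. DESeq2 called 3 of them, all higher, against 3.41% of all features. The part of fat body in the Gbp values was not tested. In 412KD, Gbp2 had 494, 650 and 242 CPM, which overlapped scramble, and Gbp3 had 74.0, 75.6 and 57.6 CPM, which did not, with a log2 fold change of 0.62 and an adjusted p of 0.307 by edgeR and 0.0888 by DESeq2. The receptor gene mthl10 itself was called in no comparison.

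**Figure D5:**
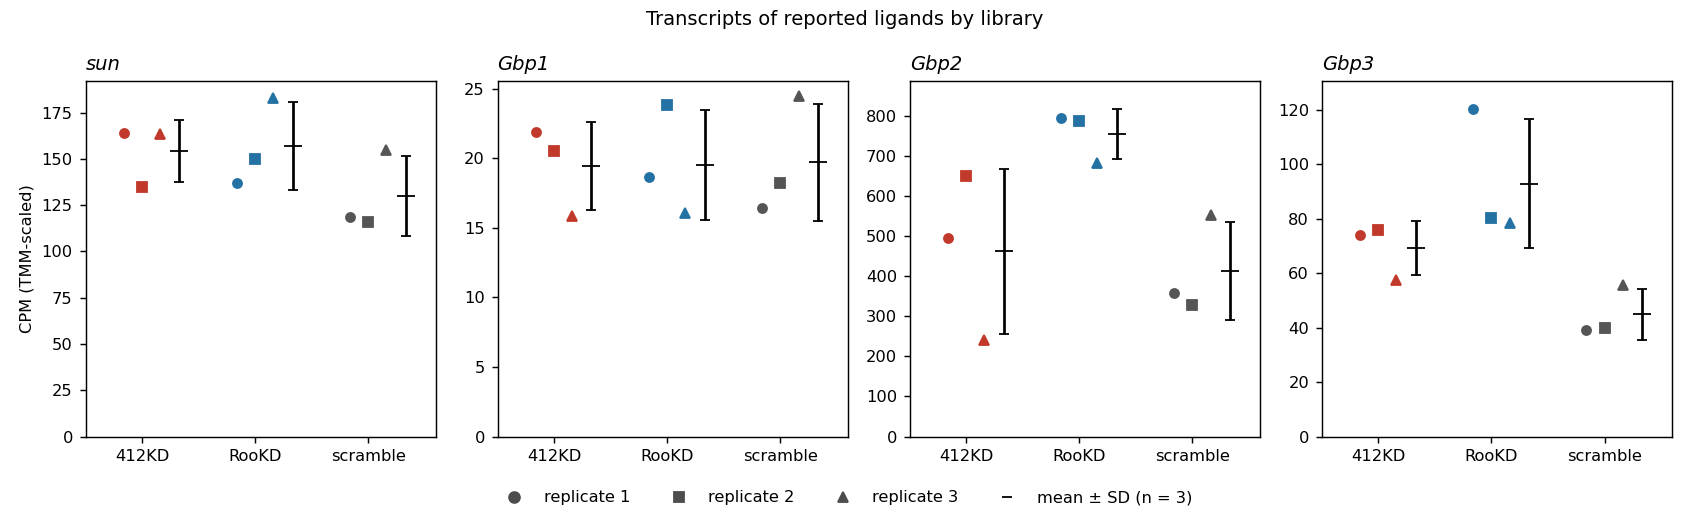
CPM of the ligand genes sun, Gbp1, Gbp2 and Gbp3 in every library, with the mean and SD of each group of 3. In Gbp2 and Gbp3 the RooKD points (684 to 796 CPM and 78.2 to 120 CPM) stand above all scramble points (328 to 553 CPM and 39.1 to 55.7 CPM), while sun and Gbp1 overlap between all groups.

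Other genes of the same signalling were read beside the shares over all features given above for each tool and comparison. Of 9 further class B and adhesion receptors, among them the receptors of diuretic hormones and of PDF, all were tested and 0 were called by edgeR or DESeq2 in any of the 3 comparisons, with median log2 fold changes of -0.03 in 412KD and 0.24 in RooKD against scramble and -0.06 in 412KD against RooKD. At an unadjusted edgeR p under 0.05 stood 0 of the 9 in 412KD and 2 in RooKD against scramble (CG11318 and Pdfr) and 0 in 412KD against RooKD. Of 6 further methuselah-like genes, mthl15 was tested, with log2 fold changes of 0.15 in 412KD and 0.23 in RooKD and no call, while mthl7, mthl11 and mthl13 had at most 7 reads in a library and mthl6 and mthl12 were not analysed here. Of 19 genes of G protein transduction, edgeR on all libraries of a comparison tested 18 and called 0. At an unadjusted p under 0.05 stood 1 in 412KD (the receptor kinase gene Gprk2) and 1 in RooKD (loco) against scramble, and 0 in 412KD against RooKD. DESeq2 called 1 of 19 in 412KD and 1 of 18 in RooKD against scramble, against 2.97% and 3.41% of all features, and 0 of 18 in 412KD against RooKD. The call in RooKD was loco, a regulator of G protein signalling, which was lower, with 64.8, 54.3 and 53.6 CPM in RooKD against 111, 103 and 69.6 CPM in scramble and an adjusted p of 0.0220 (edgeR 0.211). The call in 412KD was Gbeta76C, the eye G protein beta subunit (adjusted p = 0.0129 by DESeq2), which had 19, 18 and 2 reads in 412KD and 0 in scramble. RooKD held 0, 8 and 3 reads of it. The 7-library fit by edgeR, in which Gbeta76C passed the filter, also called it in 412KD against scramble (adjusted p = 0.0466), against 1.09% of all features.

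Genes whose log2 CPM followed a member most closely over the 9 libraries were sought among 9006 genes, by Pearson r, as a description of libraries that share group, depth and tissue make-up. Those nearest to mth were lectin-24Db, a C-type lectin gene (r = 0.93), and the phagocyte receptor genes eater (0.91) and NimC2 (0.90). The hemocyte marker list includes eater, yet the median log2 CPM of that list had an r of only 0.15 with mth. Nearest to mthl2 were CG7806 (0.98), the engulfment receptor gene drpr (0.97) and CG15098 (0.95), and nearest to mthl14 were the transporter gene MRP (0.94), the cytochrome P450 gene Cyp4p1 (0.94) and CG34236 (0.93). For mthl8 they were the centrosome gene spd-2 (0.95), CG10014 (0.95) and the peptidoglycan amidase gene PGRP-SC1b (0.94), and for mthl10 CG12728 (0.91), rho-4 (0.89) and CG9114 (0.89). Among the members themselves the highest values were 0.78 between mth and mthl5 and 0.75 between mth and mthl3, and the lowest was -0.76 between mthl3 and mthl9.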

How the data were processed

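Paired-end RNA sequencing of pooled thoraces gave 9 libraries, 3 per group. Per the submitters' processing notes, HISAT2 and DESeq2 were used on build dm6, with no versions. The counting tool, strand use and treatment of multiply matching reads were not found in any source used. Each hairpin has a table from the authors (14166 and 14078 features) that repeats the scramble libraries. The deposited raw read counts per gene, named so in the file headers, were the sole input to the tests. The deposited normalized signal equals the count over a size factor of its library, going by the numbers themselves. The deposited FPKM values were used to check the order of levels. The deposited log2 fold changes and p-values are the authors' own comparison, per the file headers, and were not used for results.

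The tables were joined on 13759 shared features, after 6 low-complexity features per table (at most 0.244% of reads) were left out and 5 symbols that had become dates were restored. Scramble counts were identical in both tables. Tests used edgeR 4.0.16 in R 4.3.3 (TMM, filterByExpr with a minimum count of 10, robust quasi-likelihood F test, adjusted p of 0.05), on the 6 libraries of each comparison with scramble and on all 9 for 412KD against RooKD. The step was tested on simulated data. DESeq2 1.42.0 was an alternative, and where it gave no adjusted p none is printed. CPM in the text comes from the 9-library TMM scaling. Replicates differed by more than sampling noise (chi-square per degree of freedom 20.9 to 164.2 over the pairs). Gene spans equal those of the reference annotation for all 10 members, and levels per kilobase use the gene length of the tables. Shown by rule were all members, called members of the lists, sun, Gbp1 and Gbp2, and the 3 genes nearest in pattern to mth, mthl10 and each member called by a tool; Gbp3 came in through its call. Neighbouring genes and loci were looked at after seeing the values. The members and all lists were chosen with earlier results of these data known. No sequence is shown.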

Additional observations from a re-analysis of the deposited data

Results flagged for a closer look

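A difference between the hairpin groups was picked out for mthl14, by DESeq2's test of 412KD against RooKD itself (log2 fold change -1.28, adjusted p = 1.89e-06; edgeR adjusted p = 0.0655). For 4 members every 412KD library lay on one side of the scramble mean and every RooKD library on the other, against 1.88% of all features, a pattern that was not tested as such. Among them, mthl3, mthl9 and mthl10 overlapped the scramble libraries in both hairpin groups. The ratio of the 412KD mean to the RooKD mean was 0.413 for mthl14, 0.709 for mthl3, 0.823 for mthl10 and 1.861 for mthl9. Of these 4, DESeq2 called mthl14 alone in 412KD against RooKD.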

How the results depend on the processing

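With TMM replaced by RLE size factors no count or call changed. Without a filter on low counts edgeR called 15, 26 and 11 features in 412KD against scramble, RooKD against scramble and 412KD against RooKD (2, 11 and 10 with it), and 1, 0 and 1 members: mthl8 in the first (adjusted p = 0.0262) and mthl14 in the last (log2 fold change -1.27, adjusted p = 0.0446). DESeq2 called 337, 346 and 81 features and 3, 1 and 1 members. One fit of all 9 libraries gave 14 features for 412KD against scramble, and the 6 libraries of its own gave 4 for 412KD against RooKD. The 7-library fit, without 412KD replicate 3 and RooKD replicate 1, gave 116, 84 and 70 features and 1, 0 and 1 members, and DESeq2 on those libraries, added after seeing the data, gave 400, 617 and 428 features and 3, 2 and 2 members. The 6-library fit, also without 412KD replicate 1 and added after seeing the data, gave 43, 49 and 19 features and 1, 1 and 1 members (mthl8, mthl2 and mthl8).

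Leaving out single libraries gave 0 to 105, 0 to 44 and 2 to 22 features and 0 to 1, 0 and 0 to 1 members; the highest counts came without 412KD replicate 3, RooKD replicate 1 and 412KD replicate 3. The member called in 412KD against RooKD was mthl8, without RooKD replicate 1 (adjusted p = 0.00868 by edgeR).

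The replicate number as a block gave 0, 10 and 4 features and 0 members. Deviations of equally numbered libraries correlated at 0.09, 0.12 and 0.11 for 412KD and scramble, at 0.24, -0.03 and 0.06 for RooKD and scramble, and at 0.00, 0.39 and -0.21 for 412KD and RooKD, so the numbers were not taken to pair the libraries.

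Signs reversed for mthl8 in RooKD against scramble, with fitted log2 fold changes of -6.86 in the 7-library fit, -6.88 in the 6-library fit, -6.02 by DESeq2 on those libraries and -6.83 to 3.20 when single libraries were left out; the negative values are set by libraries with 0 reads and are no measure of size. Leaving out single libraries also moved mthl10 in 412KD against scramble between -0.25 and 0.0063, and in RooKD against scramble mth between -0.14 and 0.044, mthl1 between -0.072 and 0.042 and mthl5 between -0.17 and 0.030. In 412KD against RooKD, mthl2 moved between -0.81 and 0.019 and was 0.31 in the 7-library fit with either tool, and mthl5 was 0.017 by either tool there and 0.15 in the 6-library fit. In 412KD against scramble mthl5 was 0.015 in the 6-library fit. In the comparisons where its sign reversed, edgeR called none of these members under any setting, and the cause was not tested. The order of levels per kilobase was the same by the deposited FPKM. With Spearman's rho 1 of the 3 genes nearest in pattern was kept for each of mth, mthl2, mthl8, mthl10 and mthl14, counting ties in rho as kept. At 6 to 25 reads of mthl8 in scramble, depth limits the size of its fold change.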
